A study of Mus musculus with 4 samples.

Results

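The genes described here encode the molecules by which leukocytes hold on to vessel walls and to other cells. They comprise 10 of the 32285 genes in the files, chosen by symbol: the integrin ligands Icam1, Icam2 and Vcam1, the integrin alpha chains Itgal, Itgam, Itgax and Itga4, the integrin beta chains Itgb2 and Itgb7, and the selectin ligand Selplg. Their levels were read from single-cell RNA sequencing of perfused, enzyme-digested livers of male C57BL/6J mice, a study of non-alcoholic fatty liver disease in which red blood cells were lysed and dead cells were removed before 10x Genomics 3' v3.1 capture. By the sample numbers in the paper, 1 mouse on normal chow diet (NCD) and 2 on high-fat diet (HFD) gave 1 library each. Another mouse on high-fat diet, treated with Jiangtang Qingre Formula (JQF), a preparation of several herbs, gave 1. NCD and JQF thus had no replicate, and HFD and JQF share the fat-rich diet.

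Integrins are pairs of an alpha and a beta chain on the leukocyte surface. Itgb2, the CD18 chain, pairs with Itgal to form LFA-1, with Itgam to form Mac-1 and with Itgax to form the receptor known from the CD11c marker, and LFA-1 binds Icam1 and Icam2. Itga4 pairs with Itgb1 to form VLA-4, which binds Vcam1, and with Itgb7 to form the gut-homing receptor. Selplg encodes PSGL-1, which carries the sugars that selectins bind when leukocytes roll. In liver, Icam1 is known as an inducible ligand on sinusoidal endothelium and myeloid cells, and Vcam1 as a ligand on endothelium and on Kupffer cells, the resident macrophages of the sinusoids.

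Promoters of 5 of the 10 genes (Icam1, Itgam, Itgax, Itga4 and Itgb7) were in the RefSeq promoter table used, on build GRCm38.p6 and covering 250 bases before to 50 after the start that RefSeq gives each gene, which can differ from the GENCODE start. The sequences shown belong to the ligand gene and to the pair of alpha chain genes whose calls were most stable in NK cells and macrophages. Icam1 lies at chr9:21015985-21028817 (plus strand), Itgam at chr7:128062640-128118491 (plus strand) and Itgax at chr7:128129547-128150657 (plus strand) in GENCODE M21, and the promoter windows are chr9:21015690-21015989, chr7:128062390-128062689 and chr7:128129300-128129599, each on the plus strand. Searches on both strands covered the strict NF-kB consensus (a site that differs from it by any base was not counted), the PU.1-type core GAGGAA and the AP-1-type motif TGANTCA, and capitals mark the matches.
Icam1 promoter: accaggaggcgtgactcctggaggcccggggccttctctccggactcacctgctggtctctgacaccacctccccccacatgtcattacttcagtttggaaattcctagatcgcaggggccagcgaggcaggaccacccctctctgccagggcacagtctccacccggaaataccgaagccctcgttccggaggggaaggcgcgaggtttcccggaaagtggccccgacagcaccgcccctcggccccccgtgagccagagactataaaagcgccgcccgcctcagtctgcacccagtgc
Itgam promoter: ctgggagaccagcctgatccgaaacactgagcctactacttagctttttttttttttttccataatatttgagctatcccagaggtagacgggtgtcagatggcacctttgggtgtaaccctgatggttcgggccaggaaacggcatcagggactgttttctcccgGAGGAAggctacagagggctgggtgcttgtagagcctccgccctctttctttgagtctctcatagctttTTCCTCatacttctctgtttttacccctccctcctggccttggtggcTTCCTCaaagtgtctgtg
Itgax promoter: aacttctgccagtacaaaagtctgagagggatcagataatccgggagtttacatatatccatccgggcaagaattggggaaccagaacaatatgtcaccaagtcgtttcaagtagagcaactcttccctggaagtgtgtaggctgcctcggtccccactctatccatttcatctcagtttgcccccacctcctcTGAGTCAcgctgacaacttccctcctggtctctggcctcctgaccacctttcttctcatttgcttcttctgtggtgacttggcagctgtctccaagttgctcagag
The Itgam window held 3 GAGGAA matches on either strand, the Itgax window held 1 TGANTCA match, and the Icam1 window held no match to these exact patterns. Of all 32851 promoters in the table, 8.46% held the NF-kB consensus, 28.3% GAGGAA and 7.81% TGANTCA, and no matches overlapped in these windows.

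After filtering, 29025 cells remained (5578 for NCD, 6107 and 9399 for the HFD replicates, 7941 for JQF), with 61038644 to 92611935 UMIs (distinct captured molecules) per library. The median cell held 12769.5 UMIs in NCD and 7424 to 8595 elsewhere. Cell types were named from marker genes, and the labels that the samples carry in GEO, a stem cell line and immune cells, do not describe the mixture. Library pairs shared 14 to 30 cell barcodes, at most 0.334% of a library. In 8 types every library held at least 50 cells, and these 26455 cells entered the tests. Endothelial cells numbered 2924 in NCD, 98 and 1095 in HFD replicates 1 and 2 and 552 in JQF, the type whose number differed most between the libraries. All fold changes are log2 differences from the edgeR quasi-likelihood test on UMIs summed per library and type, with Benjamini-Hochberg adjustment over all genes of the type. Only the HFD pair gave a spread between libraries, and the test took the same spread for the unreplicated groups, so the p-values hold no measurement of how mice on chow or formula vary. The median log2 fold change of all genes differed between TMM, DESeq2 size factors and library totals by over 0.1 in several types, at most by 0.22 in NK cells.

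Levels are given as CPM, the UMIs of a gene per 1000000 UMIs of that type in that library. Of 320 levels (10 genes, 8 types, 4 libraries), 33 were carried by few cells, meaning that 3 cells or fewer held a UMI or that the top 3 cells held over 50% of the UMIs, and 0 were at 0. By the median over the 4 libraries, Vcam1 was highest in macrophages, Icam2 in endothelial cells, Itgam in neutrophils, Itgax in dendritic cells, Itga4 in T cells and Itgb7 and Selplg in NK cells. Icam1, Itgal and Itgb2 were highest in neutrophils. The range of the top type lay above that of the next one for Vcam1, Icam2 and Itgam, and overlapped it for the other 7 genes. These orders are a description, since the types were clustered from the same cells.

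**Figure D1:**
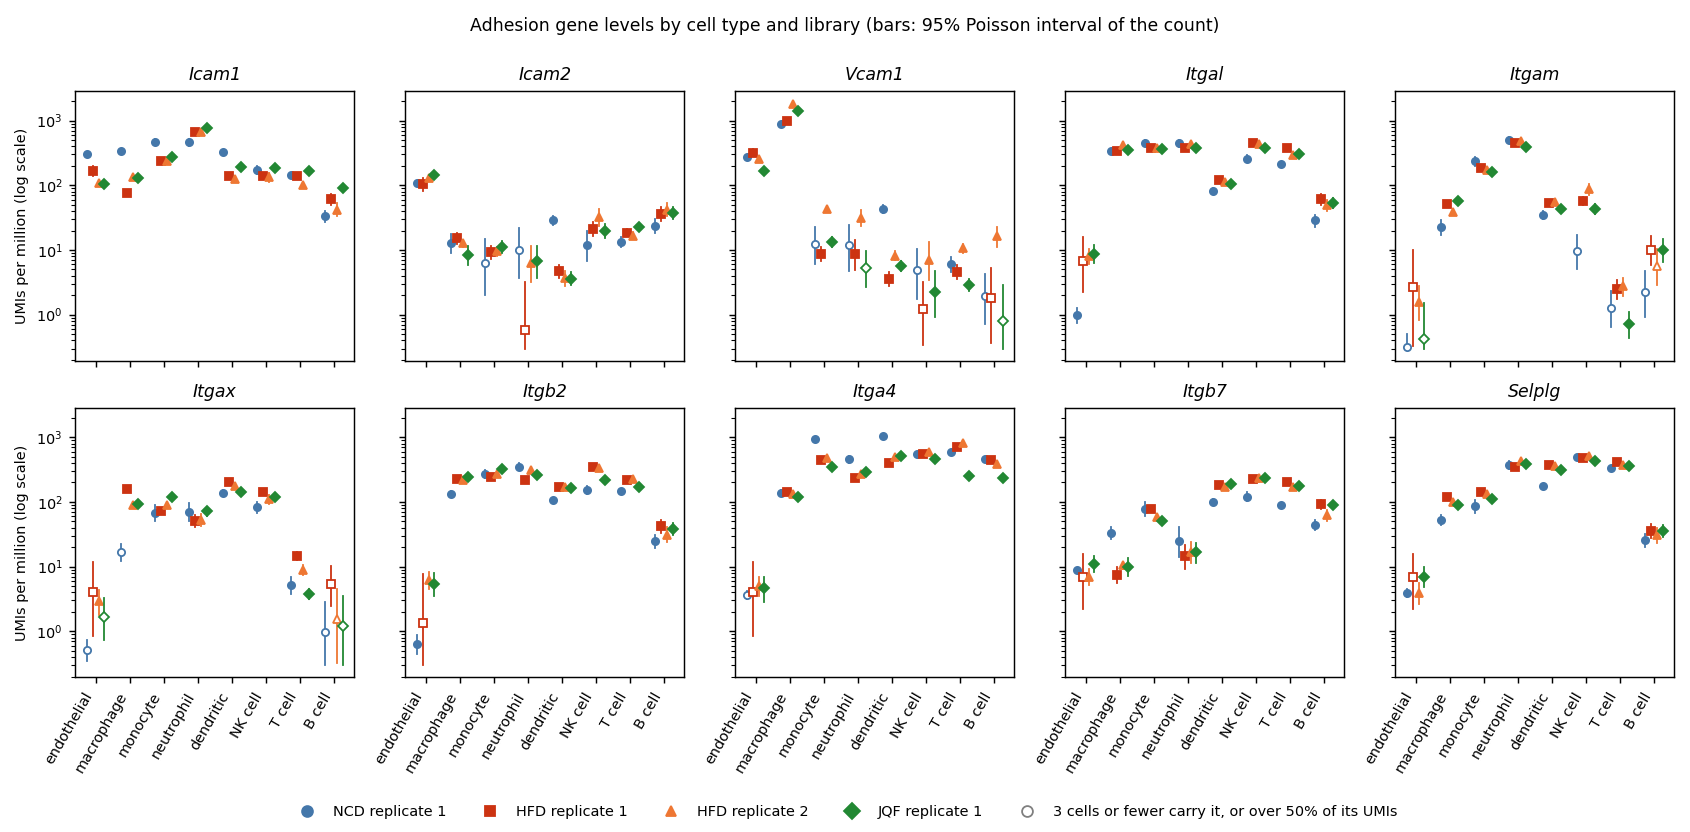
Level of each adhesion gene by cell type and library, in CPM on a log axis, with bars for the 95% Poisson interval of the count and hollow points for levels carried by few cells. Vcam1 in macrophages ran from 876 to 1827 CPM, and the integrin chains and Selplg were at or below 11.1 CPM in endothelial cells.

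HFD against NCD asked which adhesion genes differed with the diet. The test called 25 of 80 gene-type pairs, 16 higher and 9 lower in HFD, beside 16.7% of all gene-type tests. By type, 10 of 10 were called in dendritic cells beside 32.1% of all genes, 3 of 10 in macrophages beside 7.26%, 3 of 10 in monocytes beside 19.3%, 3 of 10 in NK cells beside 19.3%, 2 of 10 in B cells beside 26.8%, 2 of 10 in endothelial cells beside 5.54%, 1 of 10 in T cells beside 8.5% and 1 of 10 in neutrophils beside 14.5%. The dendritic cell count depended on a subcluster led by endothelial genes: without it 3 of 10 were called beside 25% of all genes, and in named dendritic subsets 4 of 10 beside 20.8%. Over all types the count was then 18 of 80 without the subcluster, 11 higher and 7 lower, and 19 of 80 with named dendritic subsets. No pooled share of all genes is given for these totals. In B cells, T cells, NK cells, monocytes and neutrophils the count lay within about 1 gene of what the share of all genes in the type gives for 10 genes, and in B cells and neutrophils it was below it. The median log2 fold change of the 10 genes was 0.73 in B cells beside 0.068 over all genes, 0.48 beside 0.083 in T cells, 0.50 beside 0.068 in NK cells and 0.52 beside 0.046 in macrophages. It was 0.60 beside 0.062 in dendritic cells, 0.17 beside 0.015 in endothelial cells, -0.15 beside 0.17 in monocytes and -0.20 beside 0.086 in neutrophils. The dendritic median was taken with the endothelial-led subcluster included. The endothelial median includes Itgal (2.79), Itgam (2.40), Itgax (2.47) and Itgb2 (2.74), at most 8.81 CPM there and with free RNA lowest in NCD. The other endothelial values were Icam1 -1.36, Icam2 -0.017, Vcam1 -0.082, Itga4 0.23, Itgb7 -0.51 and Selplg 0.10. In B cells the NCD levels of Vcam1, Itgam and Itgax were carried by few cells. The part of free RNA in these medians was not tested.

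**Figure D2:**
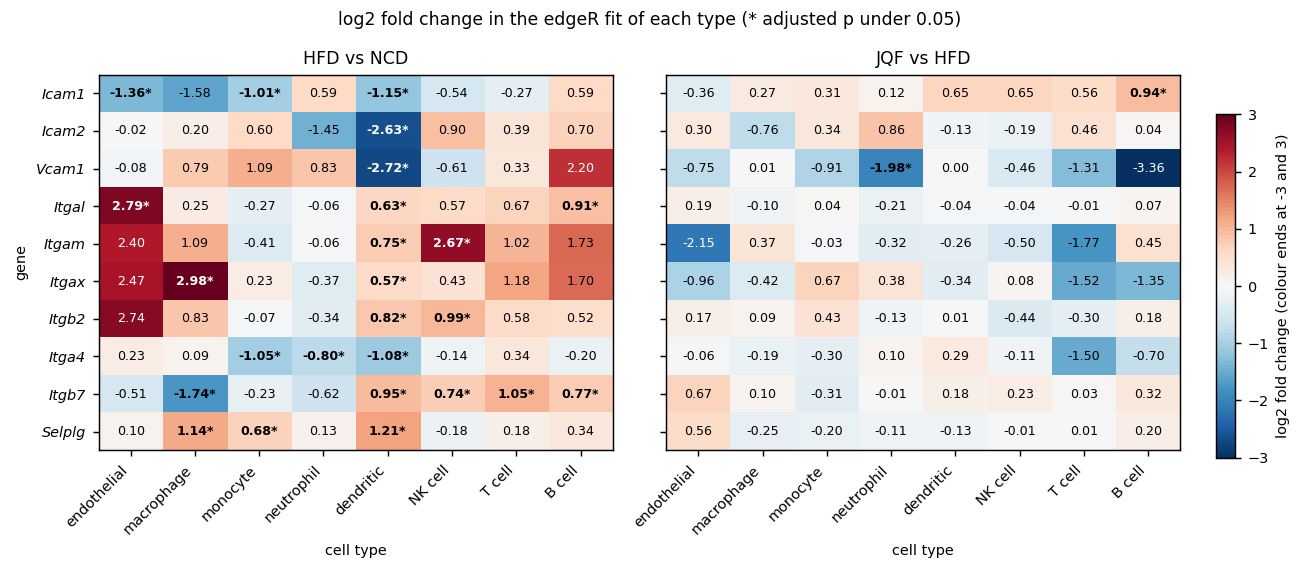
Log2 fold changes of the adhesion genes in each type, HFD against NCD on the left and JQF against HFD on the right, with asterisks at an adjusted p under 0.05 and colours ending at -3 and 3. On the left 25 of 80 entries carry an asterisk and on the right 2 of 80, and entries without one are estimates for which no direction is claimed.

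Icam1, the inducible ligand of LFA-1 and Mac-1, fell in 3 types in HFD. In endothelial cells its level was 306 CPM in NCD, 166 and 109.7 CPM in HFD replicates 1 and 2 and 104 CPM in JQF (log2 fold change -1.36 ± 0.26 SE, adjusted p = 0.0347). NCD was above the other libraries, and JQF was slightly below both HFD libraries. The call was kept in 10 of 10 alternative ways of processing (other scalings, filters, tests, cell limits and clusterings, or the library outside the comparison or the 3 top cells left out). Leaving out 1 HFD library at a time allowed no test and gave log2 fold changes of -1.61 and -1.07. In sinusoidal endothelial cells alone, a choice made after seeing the data, Icam1 fell as well (log2 fold change -1.37 ± 0.25 SE, adjusted p = 3.36e-06), with 2 of 10 genes called beside 12% of all genes. The sinusoidal estimate and SE were almost those of all endothelial cells, so the smaller p does not reflect a larger difference. The p-values of separate edgeR fits are not on one scale. HFD replicate 1 held only 98 endothelial cells, 53 of them sinusoidal.

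In monocytes Icam1 was 470.1 CPM in NCD, 234 and 234 CPM in HFD replicates 1 and 2 and 272 CPM in JQF (log2 fold change -1.01 ± 0.21 SE, adjusted p = 0.00154), with NCD alone high. The NCD monocytes numbered 62, among them 22 classical and 27 nonclassical cells. Without the 3 cells with most Icam1 UMIs in each library the log2 fold change was -0.37 with adjusted p = 0.262 by edgeR, and the call was lost. The monocyte call thus rests in part on a few cells. This removal takes a larger share of the few NCD cells. The call was kept in 9 of 10 alternatives. The monocyte subsets differed between the libraries: nonclassical cells made up 43.5% in NCD, 4.62% and 11.1% in HFD replicates 1 and 2 and 6.72% in JQF of the monocytes, and cells of no named subset 21.0% in NCD, 67.1% and 68.6% in HFD replicates 1 and 2 and 61.9% in JQF. Icam1 was 799 CPM in NCD, 329 and 464 CPM in HFD replicates 1 and 2 and 398 CPM in JQF in classical and 195 CPM in NCD, 132 and 216 CPM in HFD replicates 1 and 2 and 149 CPM in JQF in nonclassical monocytes, so NCD was highest in classical monocytes and lay within the range of the other libraries in nonclassical ones. The part of the subset makeup in the call was not tested. In dendritic cells Icam1 was 322 CPM in NCD, 138 and 124 CPM in HFD replicates 1 and 2 and 195 CPM in JQF (log2 fold change -1.15 ± 0.15 SE, adjusted p = 0.00504), a call kept in 10 of 10 alternatives. Within dendritic cells the NCD level was above the HFD levels in cDC1, the cross-presenting subset, at 207 CPM in NCD, 105 and 103 CPM in HFD replicates 1 and 2 and 125 CPM in JQF, and in cDC2 at 599.5 CPM in NCD, 84.0 and 81.9 CPM in HFD replicates 1 and 2 and 260.2 CPM in JQF.

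Neutrophils, the type with most Icam1, did not pass the test. Their level was 462 CPM in NCD, 659 and 671 CPM in HFD replicates 1 and 2 and 769 CPM in JQF (log2 fold change 0.59 ± 0.27 SE, adjusted p = 0.131). NCD was the lowest library and JQF the highest. In macrophages the values were 342 CPM in NCD, 76.9 and 134 CPM in HFD replicates 1 and 2 and 129 CPM in JQF. NK cells held 173 CPM in NCD, 138 and 132 CPM in HFD replicates 1 and 2 and 186 CPM in JQF. T cells held 143 CPM in NCD, 140.1 and 101 CPM in HFD replicates 1 and 2 and 164 CPM in JQF. NCD was highest in macrophages, where no call was made, while NCD lay within the range of the other libraries in NK and T cells. By the median over the libraries the order was neutrophils (665 CPM), monocytes (253 CPM), dendritic cells (167 CPM), NK cells (155 CPM), T cells (141 CPM), endothelial cells (138 CPM), macrophages (132 CPM) and B cells (51.8 CPM), and the ranges of every pair of neighbours overlapped. Icam1 in barcodes not called as cells, a measure of free RNA, was even, at 143 CPM in NCD, 131 and 131 CPM in HFD replicates 1 and 2 and 135 CPM in JQF.

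Icam2, a constitutive ligand of LFA-1, was an endothelial gene here. Its endothelial level was 108 CPM in NCD, 105 and 128 CPM in HFD replicates 1 and 2 and 146 CPM in JQF. Neither comparison passed, with log2 fold change -0.017 ± 0.24 SE, adjusted p = 0.982 in HFD against NCD and log2 fold change 0.30 ± 0.24 SE, adjusted p = 1 in JQF against HFD. The order was endothelial cells (118 CPM), B cells (37.0 CPM), NK cells (20.4 CPM), T cells (17.7 CPM), macrophages (12.8 CPM), monocytes (9.43 CPM), neutrophils (6.60 CPM) and dendritic cells (4.17 CPM), and only endothelial cells were separated from their neighbour, their range of 105 to 146 CPM lying above that of B cells. Sinusoidal cells held 109 CPM in NCD, 119 and 134 CPM in HFD replicates 1 and 2 and 159 CPM in JQF, and endothelial cells of no named subset 97.5 CPM in NCD, 93.2 and 115 CPM in HFD replicates 1 and 2 and 109.8 CPM in JQF. Free Icam2 RNA was 55.0 CPM in NCD, 11.5 and 22.3 CPM in HFD replicates 1 and 2 and 15.1 CPM in JQF, highest in NCD, the library with most endothelial cells.

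Vcam1, the ligand of VLA-4, was a macrophage gene. Macrophages held 876 CPM in NCD, 979 and 1827 CPM in HFD replicates 1 and 2 and 1429 CPM in JQF (log2 fold change 0.79 ± 0.47 SE, adjusted p = 0.307 in HFD against NCD), and HFD replicate 2 was far above replicate 1. Kupffer cells held 829 CPM in NCD, 2571 CPM in HFD replicate 2 and 2061 CPM in JQF, while HFD replicate 1 held 1 Kupffer cell. Lipid-associated macrophages held 2063 CPM in NCD, 967 and 1430.3 CPM in HFD replicates 1 and 2 and 943 CPM in JQF, with 6 such cells in NCD. The share of macrophages with a Vcam1 UMI was 84.8% in NCD, 73.8% and 87.0% in HFD replicates 1 and 2 and 82.6% in JQF. After thinning every cell to 2000 UMIs it was 59.1% in NCD, 58.7% and 75.8% in HFD replicates 1 and 2 and 69.8% in JQF. In B cells, which should lack it, the share was 1.37% in NCD, 1.03% and 7.69% in HFD replicates 1 and 2 and 0.562% in JQF, with median UMIs of 4730 to 7887 per library against 10476.5 to 16612 in macrophages. The share in macrophages was far above that in B cells in every library.

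Endothelial Vcam1 was 270.5 CPM in NCD, 319 and 257 CPM in HFD replicates 1 and 2 and 169 CPM in JQF (log2 fold change -0.082 ± 0.23 SE, adjusted p = 0.886 in HFD against NCD, and log2 fold change -0.75 ± 0.24 SE, adjusted p = 1 in JQF against HFD). JQF was the lowest library, but neither comparison passed. Sinusoidal cells held 269 CPM in NCD, 153 and 229 CPM in HFD replicates 1 and 2 and 113 CPM in JQF, against 286 CPM in NCD, 451 and 318 CPM in HFD replicates 1 and 2 and 330.3 CPM in JQF in endothelial cells of no named subset, so the level depended on which endothelial cells were counted. In sinusoidal cells alone the JQF against HFD value was log2 fold change -0.82 ± 0.27 SE, adjusted p = 0.13. The order of levels was macrophages (1204 CPM), endothelial cells (264 CPM), monocytes (12.9 CPM), neutrophils (10.2 CPM), dendritic cells (6.91 CPM), T cells (5.31 CPM), NK cells (3.55 CPM) and B cells (1.87 CPM). Macrophages and endothelial cells were separated from each other and from the remaining types, whose ranges overlapped. Free Vcam1 RNA was 131 CPM in NCD, 182 and 512 CPM in HFD replicates 1 and 2 and 106 CPM in JQF, highest in HFD replicate 2, the library that also led in monocytes, neutrophils and B cells, at 42.4, 31.3 and 16.2 CPM. The part of free RNA in these values was not tested. Among types too small in some library to test, epithelial cells (31 in NCD, 211 and 53 in HFD replicates 1 and 2, 373 in JQF) held 1.32 CPM in NCD, 107 and 76.1 CPM in HFD replicates 1 and 2 and 92.4 CPM in JQF, of which the NCD level was a single UMI and the level of HFD replicate 2 was carried by few cells.

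**Figure D3:**
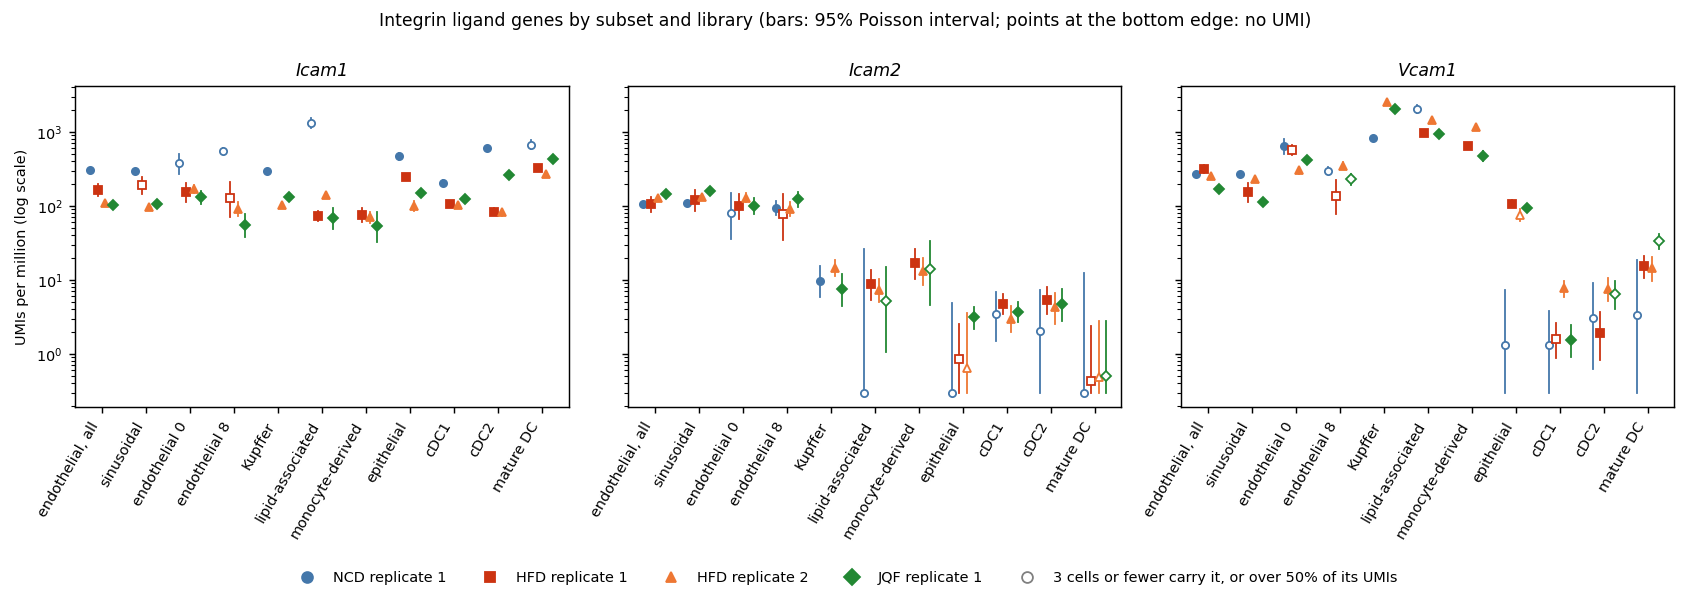
Icam1, Icam2 and Vcam1 by endothelial, macrophage, epithelial and dendritic subset and library, in CPM on a log axis, with bars for the 95% Poisson interval and hollow points for levels carried by few cells. Vcam1 in Kupffer cells reached 2571 CPM in HFD replicate 2, and Icam2 in sinusoidal cells ran from 109 CPM in NCD to 159 CPM in JQF.

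Itgal, the alpha chain of LFA-1, was found in all leukocyte types. In B cells it was 28.6 CPM in NCD, 61.4 and 49.0 CPM in HFD replicates 1 and 2 and 53.6 CPM in JQF (log2 fold change 0.91 ± 0.27 SE, adjusted p = 0.00615), and NCD was the lowest library. This call was kept in 8 of 10 alternatives. With free RNA assumed, not measured, to be 5% of each sum and taken away, the B cell levels were 27.7 CPM in NCD, 52.0 and 38.7 CPM in HFD replicates 1 and 2 and 48.1 CPM in JQF. In endothelial cells, which should lack the chain, it was 0.993 CPM in NCD, 6.81 and 8.02 CPM in HFD replicates 1 and 2 and 8.81 CPM in JQF (log2 fold change 2.79 ± 0.58 SE, adjusted p = 0.0413, kept in 8 of 10), while free Itgal RNA was 45.4 CPM in NCD, 240.3 and 246 CPM in HFD replicates 1 and 2 and 159 CPM in JQF and moved the same way. An assumed free RNA share of 5%, which was not measured, would account for more Itgal than the NCD and HFD endothelial cells held, so no level was left to compare. The part of free RNA in the call was not tested. With the JQF library left out of the fit the endothelial value was 2.78 with an edgeR adjusted p of 0.0617, and the call was lost. Nonclassical monocytes, the patrolling subset, held the highest level of any subset, 854 CPM in NCD, 814 and 812 CPM in HFD replicates 1 and 2 and 856 CPM in JQF. The order over types was neutrophils (407 CPM), NK cells (401 CPM), monocytes (378 CPM), macrophages (348 CPM), T cells (304 CPM), dendritic cells (109 CPM), B cells (51.3 CPM) and endothelial cells (7.41 CPM). Ranges of the 5 highest types overlapped, and T cells, dendritic cells and B cells were each separated from the next type below.

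Itgam, the alpha chain of Mac-1, rose in NK cells in HFD. The NK cell level was 9.67 CPM in NCD, 57.0 and 86.8 CPM in HFD replicates 1 and 2 and 43.6 CPM in JQF (log2 fold change 2.67 ± 0.42 SE, adjusted p = 0.00123), and NCD was the lowest library. The NCD level was carried by few cells, with 12 UMIs in 7 of 112 cells and 3.33 CPM without the 3 highest. The call was kept in 10 of 10 alternatives. The share of NK cells with an Itgam UMI was 6.25% in NCD, 20.9% and 25.4% in HFD replicates 1 and 2 and 17.4% in JQF, and after thinning to 2000 UMIs it was 0.893% in NCD, 9.37% and 13.8% in HFD replicates 1 and 2 and 6.81% in JQF. In T cells, which mostly lack it, the share was 1.02% in NCD, 1.35% and 1.56% in HFD replicates 1 and 2 and 0.551% in JQF, with median UMIs of 6332 to 9902 per library against 5747 to 10213.5 in NK cells.

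Several values moved with the NK cell result. Conventional NK cells, the subset with most Itgam, numbered 8 in NCD, 51 and 47 in HFD replicates 1 and 2 and 107 in JQF and held 107 CPM in NCD, 363 and 363 CPM in HFD replicates 1 and 2 and 147 CPM in JQF, while ILC1-like cells, a tissue-resident subset, held 0 CPM in NCD, 7.67 and 15.4 CPM in HFD replicates 1 and 2 and 12.8 CPM in JQF and NK cells of no named subset 1.84 CPM in NCD, 82.6 and 64.3 CPM in HFD replicates 1 and 2 and 10.4 CPM in JQF. Conventional NK cells made up 7.14% in NCD, 12.7% and 20.6% in HFD replicates 1 and 2 and 27.9% in JQF of NK cells, ILC1-like cells 5.36% in NCD, 65.7% and 44.3% in HFD replicates 1 and 2 and 32.8% in JQF and cells of no named subset 87.5% in NCD, 21.6% and 35.1% in HFD replicates 1 and 2 and 39.3% in JQF. HFD was above NCD in each of these subsets, but NCD held 8 and 6 cells of the first and second, its conventional NK level was carried by few cells, and its level in the third was 2 UMIs in 98 cells. The JQF level in the third was also carried by few cells. The T cell list held Cd3d, Cd3e, Cd3g, Trac and Cd247, none at 0 in any library, and summed to 1121 CPM in NCD, 251 and 551 CPM in HFD replicates 1 and 2 and 1333 CPM in JQF in NK cells. NK cells themselves express Cd247, a signalling chain of their receptors, and without it the sum was 969 CPM in NCD, 96.7 and 349 CPM in HFD replicates 1 and 2 and 1147 CPM in JQF. The 8 endothelial markers summed to 338 CPM in NCD, 4.65 and 12.1 CPM in HFD replicates 1 and 2 and 4.84 CPM in JQF, with 0 of 8 at 0 in NCD and 2 to 4 of 8 at 0 in the other libraries. Free Itgam RNA was 4.86 CPM in NCD, 43.9 and 39.3 CPM in HFD replicates 1 and 2 and 21.7 CPM in JQF, and taking away an assumed 5% of each sum as free RNA left 9.92 CPM in NCD, 57.7 and 89.3 CPM in HFD replicates 1 and 2 and 44.8 CPM in JQF. The part of free RNA, of the subset makeup and of T cell and endothelial RNA in the result was not tested. The overall order was neutrophils (463 CPM), monocytes (178 CPM), NK cells (50.3 CPM), dendritic cells (47.7 CPM), macrophages (44.8 CPM), B cells (7.83 CPM), T cells (1.90 CPM) and endothelial cells (0.999 CPM). Neutrophils and monocytes were separated from each other and from the types below.

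Itgax, the CD11c chain, rose in macrophages in HFD. The level was 16.6 CPM in NCD, 157 and 89.0 CPM in HFD replicates 1 and 2 and 91.9 CPM in JQF (log2 fold change 2.98 ± 0.46 SE, adjusted p = 0.0449), with NCD below all other libraries and carried by few cells. The call was kept in 10 of 10 alternatives. Lipid-associated macrophages, the Trem2 and Gpnmb positive subset, held 7.09 CPM in NCD, 260.4 and 192 CPM in HFD replicates 1 and 2 and 322 CPM in JQF, the NCD level being 1 UMI in 6 cells, and made up 3.80% in NCD, 27.4% and 20.4% in HFD replicates 1 and 2 and 9.88% in JQF of the macrophages. Kupffer cells held 10.3 CPM in NCD, 40.5 CPM in HFD replicate 2 and 29.9 CPM in JQF, the NCD level being carried by few cells. They made up 77.2% in NCD, 0.202% and 23.4% in HFD replicates 1 and 2 and 57.3% in JQF of the macrophages. The part of the subset makeup in the call was not tested. The JQF against HFD value in macrophages was log2 fold change -0.42 ± 0.37 SE, adjusted p = 0.729. Free Itgax RNA was 9.81 CPM in NCD, 133 and 82.0 CPM in HFD replicates 1 and 2 and 52.7 CPM in JQF, again lowest in NCD, and with 5% taken away the macrophage levels were 16.9 CPM in NCD, 159 and 89.4 CPM in HFD replicates 1 and 2 and 94.0 CPM in JQF. The endothelial markers, all 8 above 0, summed to 918 CPM in NCD, 144 and 270.1 CPM in HFD replicates 1 and 2 and 315 CPM in JQF in macrophages. Between types the order was dendritic cells (158 CPM), NK cells (114 CPM), macrophages (90.5 CPM), monocytes (80.4 CPM), neutrophils (61.9 CPM), T cells (7.01 CPM), endothelial cells (2.29 CPM) and B cells (1.38 CPM), with overlap between neighbours down to neutrophils, which were separated from T cells.

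Itgb2, the shared beta chain of LFA-1 and Mac-1, rose in NK cells, as did Itgam. It was 152 CPM in NCD, 342 and 339 CPM in HFD replicates 1 and 2 and 222 CPM in JQF (log2 fold change 0.99 ± 0.20 SE, adjusted p = 0.00573), with both HFD libraries above NCD and JQF between them. Cells of no named subset, most of the NK cells in NCD, held 148 CPM in NCD, 308 and 309 CPM in HFD replicates 1 and 2 and 206 CPM in JQF, ILC1-like cells 143 CPM in NCD, 323 and 306 CPM in HFD replicates 1 and 2 and 200.4 CPM in JQF and conventional NK cells 192 CPM in NCD, 565 and 511 CPM in HFD replicates 1 and 2 and 279.7 CPM in JQF, with NCD lowest in each. NCD held only 6 ILC1-like and 8 conventional NK cells, so its levels in those subsets come from few cells. The T cell and endothelial markers given for Itgam moved beside this call too, and their part was not tested. The call was kept in 10 of 10 alternatives. JQF against HFD gave log2 fold change -0.44 ± 0.19 SE, adjusted p = 0.274 for Itgb2 and log2 fold change -0.50 ± 0.27 SE, adjusted p = 0.414 for Itgam, so neither passed. The order of Itgb2 was neutrophils (285 CPM), NK cells (280.5 CPM), monocytes (269 CPM), macrophages (223 CPM), T cells (196 CPM), dendritic cells (168 CPM), B cells (34.9 CPM) and endothelial cells (3.41 CPM), and monocytes, dendritic cells and B cells were the types separated from the next below.

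Itga4, the alpha chain of VLA-4, fell in 3 myeloid types in HFD. In monocytes it was 946 CPM in NCD, 448 and 471 CPM in HFD replicates 1 and 2 and 349 CPM in JQF (log2 fold change -1.05 ± 0.23 SE, adjusted p = 0.00205, kept in 9 of 10). In neutrophils it was 459 CPM in NCD, 235 and 268 CPM in HFD replicates 1 and 2 and 288 CPM in JQF (log2 fold change -0.80 ± 0.27 SE, adjusted p = 0.0244, kept in 3 of 10). NCD was the highest library in both types. The monocyte subsets that differed in share between the libraries held 1196 CPM in NCD, 671 and 918 CPM in HFD replicates 1 and 2 and 689 CPM in JQF (nonclassical), 828 CPM in NCD, 406 and 508 CPM in HFD replicates 1 and 2 and 366 CPM in JQF (classical) and 724 CPM in NCD, 452 and 395 CPM in HFD replicates 1 and 2 and 308 CPM in JQF (no named subset), with NCD highest in each. These NCD levels come from 27 nonclassical cells, 22 classical cells and 13 of no named subset. With the JQF library left out of the fit the neutrophil value was -0.83 with an edgeR adjusted p of 0.236, and the call was lost. In dendritic cells the level was 1054 CPM in NCD, 398 and 501 CPM in HFD replicates 1 and 2 and 520.2 CPM in JQF (log2 fold change -1.08 ± 0.21 SE, adjusted p = 0.0156, kept in 10 of 10), and cDC1 held 1348 CPM in NCD, 276 and 425 CPM in HFD replicates 1 and 2 and 498 CPM in JQF.

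T cells held 591 CPM in NCD, 698 and 813 CPM in HFD replicates 1 and 2 and 248 CPM in JQF. The diet comparison gave log2 fold change 0.34 ± 0.24 SE, adjusted p = 0.383 and JQF against HFD gave log2 fold change -1.50 ± 0.25 SE, adjusted p = 0.0711, which did not pass here but passed in 6 of 10 alternatives. JQF was far below the other libraries. Invariant NKT cells, an innate-like subset with the lowest Itga4 of the T cell subsets, held 60.5 CPM in NCD, 187 and 239.5 CPM in HFD replicates 1 and 2 and 107 CPM in JQF and made up 29.8% in NCD, 15.2% and 14.5% in HFD replicates 1 and 2 and 52.8% in JQF of the T cells. Their share was highest in JQF. Cytotoxic T cells held 999.7 CPM in NCD, 1067 and 1167 CPM in HFD replicates 1 and 2 and 647 CPM in JQF. Fitted within subsets, a choice made after seeing the data, JQF against HFD gave log2 fold change -0.72 ± 0.29 SE, adjusted p = 0.423 in cytotoxic cells, log2 fold change -0.91 ± 0.21 SE, adjusted p = 0.063 in invariant NKT cells, log2 fold change -0.76 ± 0.32 SE, adjusted p = 0.349 in regulatory cells and log2 fold change -0.54 ± 0.29 SE, adjusted p = 0.503 in naive or central memory cells. Within these subsets the estimates were all smaller in size than over all T cells, and none passed. Itga4 over types was ordered T cells (645 CPM), NK cells (546 CPM), dendritic cells (511 CPM), monocytes (459 CPM), B cells (413 CPM), neutrophils (278 CPM), macrophages (134 CPM) and endothelial cells (4.35 CPM), and only neutrophils and macrophages were separated from the type below.

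**Figure D4:**
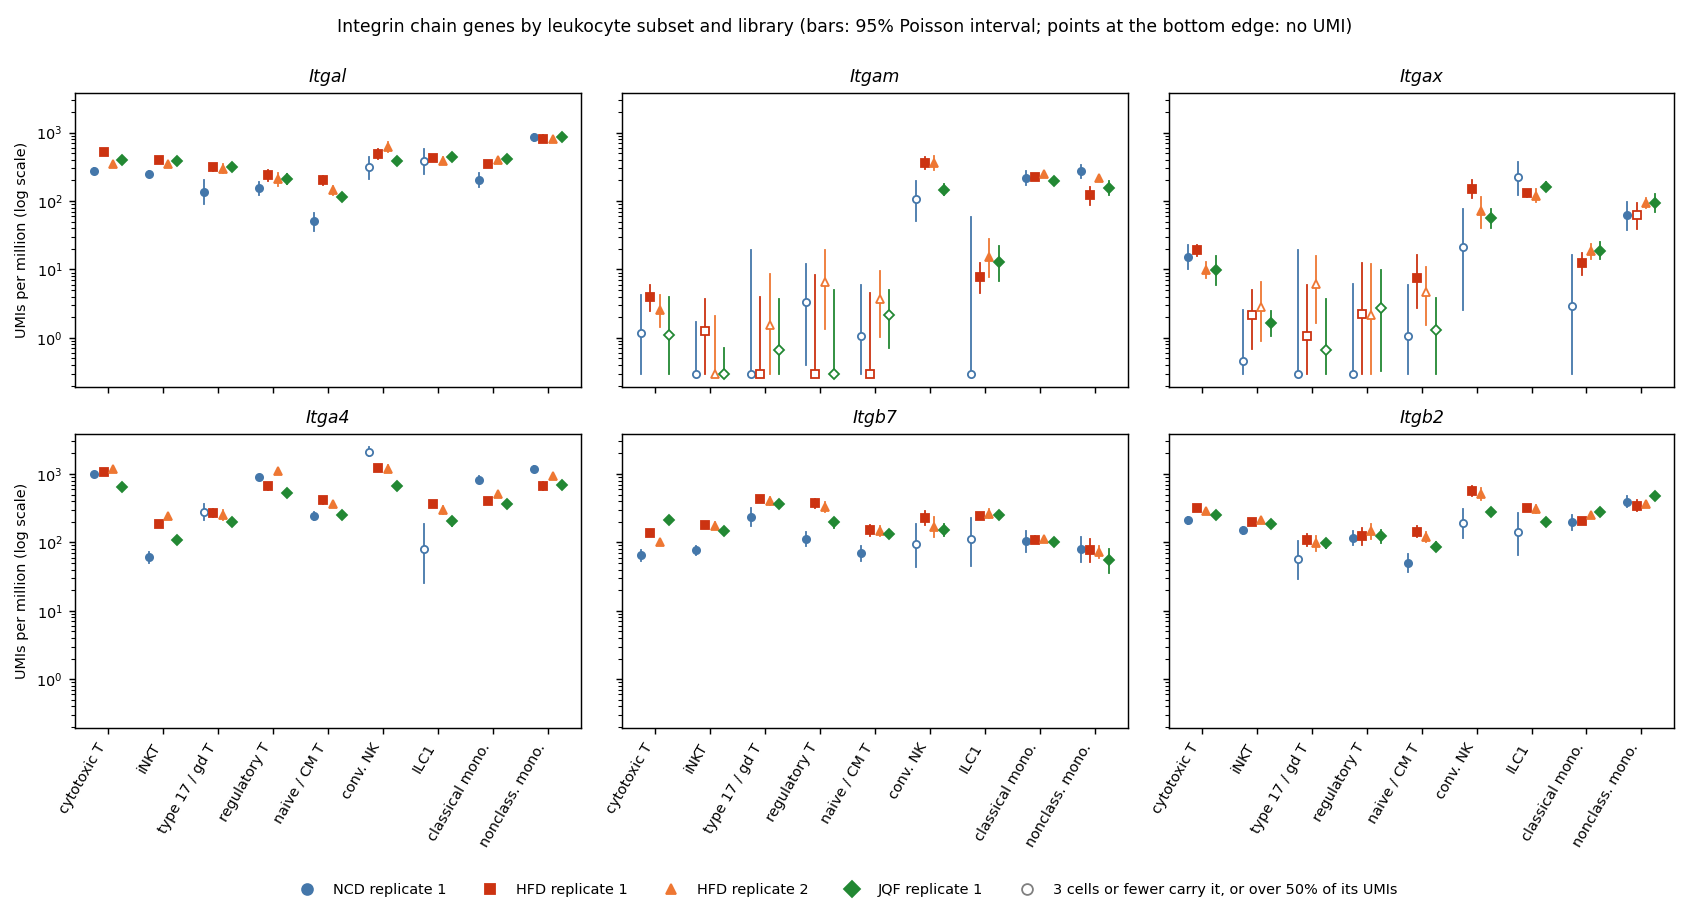
Integrin chain genes by T cell, NK cell and monocyte subset and library, in CPM on a log axis, with bars for the 95% Poisson interval and hollow points for levels carried by few cells. Itga4 in invariant NKT cells was 60.5 to 239.5 CPM, below that of cytotoxic cells in every library.

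Itgb7, the beta chain of the gut-homing receptor, was called in 5 types. One of them was dendritic cells, where the call was lost without the endothelial-led subcluster (log2 fold change 0.52 ± 0.16 SE, adjusted p = 0.06) and in named subsets (log2 fold change 0.42 ± 0.15 SE, adjusted p = 0.111). It rose in T cells, at 89.0 CPM in NCD, 203 and 169.6 CPM in HFD replicates 1 and 2 and 176 CPM in JQF (log2 fold change 1.05 ± 0.20 SE, adjusted p = 0.0251, kept in 10 of 10). It rose in NK cells, at 121 CPM in NCD, 226 and 231 CPM in HFD replicates 1 and 2 and 236 CPM in JQF (log2 fold change 0.74 ± 0.20 SE, adjusted p = 0.0269, kept in 9 of 10). T cell markers in NK cells other than Cd247 (969 CPM in NCD, 96.7 and 349 CPM in HFD replicates 1 and 2 and 1147 CPM in JQF), endothelial markers (338 CPM in NCD, 4.65 and 12.1 CPM in HFD replicates 1 and 2 and 4.84 CPM in JQF) and the NK cell subsets moved beside it, and their part was not tested. It rose in B cells, at 44.2 CPM in NCD, 93.0 and 62.1 CPM in HFD replicates 1 and 2 and 89.0 CPM in JQF (log2 fold change 0.77 ± 0.26 SE, adjusted p = 0.0157, kept in 7 of 10). Without HFD replicate 1 the B cell log2 fold change was 0.50. NCD was the lowest library in all of these types. In macrophages it fell, at 33.2 CPM in NCD, 7.52 and 10.5 CPM in HFD replicates 1 and 2 and 9.92 CPM in JQF (log2 fold change -1.74 ± 0.30 SE, adjusted p = 0.0497, kept in 7 of 10), and NCD was highest. Kupffer cells held 33.9 CPM in NCD, 9.37 CPM in HFD replicate 2 and 4.46 CPM in JQF, and macrophages of no named subset 30.5 CPM in NCD, 5.92 and 11.8 CPM in HFD replicates 1 and 2 and 18.9 CPM in JQF, with NCD highest in both. The Kupffer share and the endothelial markers of macrophages given for Itgax were also highest in NCD, and their part in the call was not tested. Fitted within T cell subsets, Itgb7 was higher in HFD in invariant NKT cells (log2 fold change 0.96 ± 0.20 SE, adjusted p = 0.0044), naive or central memory cells (log2 fold change 1.01 ± 0.30 SE, adjusted p = 0.00816) and regulatory cells (log2 fold change 1.66 ± 0.36 SE, adjusted p = 0.000353), and did not pass in cytotoxic cells (log2 fold change 0.82 ± 0.28 SE, adjusted p = 0.121). Free Itgb7 RNA was 22.5 CPM in NCD, 118 and 69.7 CPM in HFD replicates 1 and 2 and 83.3 CPM in JQF. The order was NK cells (229 CPM), dendritic cells (176 CPM), T cells (173 CPM), B cells (75.5 CPM), monocytes (67.6 CPM), neutrophils (16.7 CPM), macrophages (10.2 CPM) and endothelial cells (7.93 CPM), and monocytes were the only type separated from the next below.

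Of the other chains in these subset fits, naive or central memory cells had higher Itgal (log2 fold change 1.68 ± 0.32 SE, adjusted p = 5.71e-06) and Itgb2 (log2 fold change 1.30 ± 0.31 SE, adjusted p = 0.000672) in HFD. Invariant NKT cells had lower Icam1 (log2 fold change -0.83 ± 0.19 SE, adjusted p = 0.00744) and higher Itga4 (log2 fold change 1.55 ± 0.24 SE, adjusted p = 0.000528). These fits called 3 of 8 testable genes in naive or central memory cells beside 18.9% of all genes, 3 of 8 in invariant NKT cells beside 22.6% and 1 of 7 in regulatory cells beside 5.89%. In cytotoxic cells 0 of 10 genes were called, beside 6.63% of all genes, with 1 at an unadjusted p under 0.05, and DESeq2 was not run on the subsets. The share of all genes at that unadjusted p is not given, and calls of different subset fits are not on one scale.

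Selplg, the PSGL-1 gene, rose in macrophages, monocytes and dendritic cells in HFD. Macrophages held 52.6 CPM in NCD, 118 and 98.6 CPM in HFD replicates 1 and 2 and 91.0 CPM in JQF (log2 fold change 1.14 ± 0.20 SE, adjusted p = 0.0496, kept in 9 of 10). Kupffer cells held 47.8 CPM in NCD, 99.7 CPM in HFD replicate 2 and 89.6 CPM in JQF, and macrophages of no named subset 66.8 CPM in NCD, 119 and 99.5 CPM in HFD replicates 1 and 2 and 101 CPM in JQF. The Kupffer share was highest in NCD, as given for Itgax, as was the sum of the endothelial markers in macrophages, at 918 CPM in NCD, 144 and 270.1 CPM in HFD replicates 1 and 2 and 315 CPM in JQF, and the part of either in the call was not tested. Monocytes held 86.0 CPM in NCD, 143 and 135 CPM in HFD replicates 1 and 2 and 113 CPM in JQF (log2 fold change 0.68 ± 0.24 SE, adjusted p = 0.0439), a call kept in only 4 of 10 alternatives. Classical monocytes held 104 CPM in NCD, 147 and 163 CPM in HFD replicates 1 and 2 and 121 CPM in JQF, nonclassical ones 79.5 CPM in NCD, 179.6 and 163 CPM in HFD replicates 1 and 2 and 198 CPM in JQF and those of no named subset 58.2 CPM in NCD, 138 and 122 CPM in HFD replicates 1 and 2 and 101 CPM in JQF, with NCD lowest in each. The NCD monocyte levels come from 22 classical cells, 27 nonclassical cells and 13 of no named subset. Dendritic cells held 176 CPM in NCD, 377 and 357 CPM in HFD replicates 1 and 2 and 317 CPM in JQF (log2 fold change 1.21 ± 0.17 SE, adjusted p = 0.00609, kept in 10 of 10). NCD was the lowest library in each of them. Macrophage and monocyte levels of Selplg stood beside a free RNA level of 41.2 CPM in NCD, 205 and 151 CPM in HFD replicates 1 and 2 and 133 CPM in JQF, also lowest in NCD, and with 5% taken away macrophages held 53.2 CPM in NCD, 113 and 95.8 CPM in HFD replicates 1 and 2 and 88.7 CPM in JQF. Plasmacytoid dendritic cells, too few in some libraries to test (33 in NCD, 26 in HFD replicate 1), held 729 CPM in NCD, 636 and 584 CPM in HFD replicates 1 and 2 and 601 CPM in JQF. The order of Selplg was NK cells (482 CPM), neutrophils (379.7 CPM), T cells (364 CPM), dendritic cells (337 CPM), monocytes (124 CPM), macrophages (94.8 CPM), B cells (33.1 CPM) and endothelial cells (5.38 CPM), with dendritic cells, macrophages and B cells separated from the type below.

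The dendritic cell calls depended on which cells were counted as dendritic. NCD dendritic cells included 34 cells, of 183, in a subcluster led by endothelial genes such as Ptprb and Stab2, against 1 and 6 cells in HFD replicates 1 and 2 and 0 in JQF. The 8 endothelial markers summed to 1108 CPM in NCD, 11.8 and 27.9 CPM in HFD replicates 1 and 2 and 12.2 CPM in JQF in dendritic cells (0 of 8 at 0 in any library), and to 5658 CPM within that subcluster in NCD. In that subcluster Icam2 was 139 CPM and Vcam1 214 CPM. With all cells, Icam2 was 28.6 CPM in NCD, 4.68 and 3.65 CPM in HFD replicates 1 and 2 and 3.60 CPM in JQF (log2 fold change -2.63 ± 0.25 SE, adjusted p = 0.0025) and Vcam1 43.2 CPM in NCD, 3.58 and 8.20 CPM in HFD replicates 1 and 2 and 5.62 CPM in JQF (log2 fold change -2.72 ± 0.45 SE, adjusted p = 0.0096). Without the subcluster, a choice made after seeing the data, the estimates changed sign and neither was called, with log2 fold change 0.47 ± 0.46 SE, adjusted p = 0.496 for Icam2 and log2 fold change 1.00 ± 0.67 SE, adjusted p = 0.315 for Vcam1.

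Without the subcluster 3 of 10 genes were called beside 25% of all genes: Icam1 (log2 fold change -1.41 ± 0.16 SE, adjusted p = 0.00273), Itga4 (log2 fold change -1.58 ± 0.22 SE, adjusted p = 0.00481) and Selplg (log2 fold change 0.75 ± 0.18 SE, adjusted p = 0.0252). In the named subclusters alone (cDC1, cDC2 and mature) 4 of 10 were called beside 20.8%, adding Itgam (log2 fold change 0.59 ± 0.15 SE, adjusted p = 0.0455). Itgal, Itgax, Itgb2 and Itgb7 were called with all dendritic cells but in neither of these fits, at log2 fold changes of 0.63, 0.57, 0.82 and 0.95, and Itgam, at 0.75, was lost in one of these fits. Itgax was also lost with the JQF library left out of the fit, at 0.54 with an edgeR adjusted p of 0.0505. Icam1, Itga4 and Selplg were called under each choice of cells. Among the levels behind these values, Itgb2 was 108 CPM in NCD, 171 and 172 CPM in HFD replicates 1 and 2 and 164 CPM in JQF over all dendritic cells and 127 CPM in NCD, 171 and 172 CPM in HFD replicates 1 and 2 and 164 CPM in JQF without the subcluster. Itgb7 was 101 CPM in NCD, 180.0 and 173 CPM in HFD replicates 1 and 2 and 189.8 CPM in JQF over all and 116 CPM in NCD, 180.1 and 173 CPM in HFD replicates 1 and 2 and 189.8 CPM in JQF without it. The NCD level was the lowest in each case. A cDC1 subcluster of 54 cells held 48 from NCD, so the NCD cDC1 levels come largely from cells that clustered apart.

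**Figure D5:**
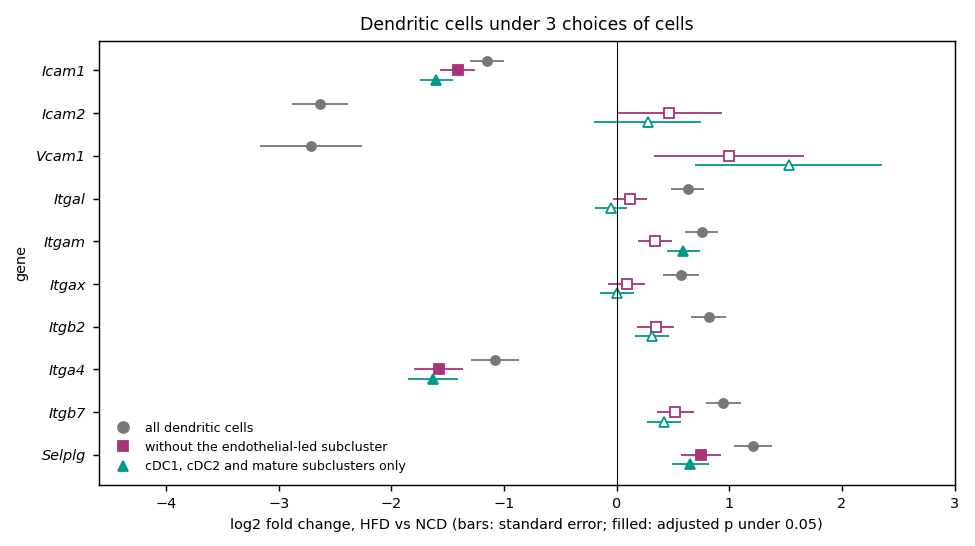
Log2 fold change of the adhesion genes in dendritic cells, HFD against NCD, with all cells, without the endothelial-led subcluster and in the cDC1, cDC2 and mature subclusters only, with bars for the SE and filled points at an adjusted p under 0.05. Icam2 moved from -2.63 to 0.47 and Vcam1 from -2.72 to 1.00 without the subcluster.

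JQF against HFD asked whether the formula changed these genes. It shares the HFD libraries with the diet comparison, so the values stand side by side and were not correlated. The test called 2 of 80 gene-type pairs, beside 1.35% of all gene-type tests. An unadjusted p under 0.05 was reached by 15 of 80. The share of all genes at that p is not given, so no excess is read from this count. Calls depend on how far each fit pools spread over genes and are not comparable between types. Itga4 in T cells (log2 fold change -1.50 ± 0.25 SE) did not pass, while Icam1 in B cells, with a smaller ratio of estimate to SE, did. In B cells Icam1 was 33.5 CPM in NCD, 61.4 and 42.3 CPM in HFD replicates 1 and 2 and 91.4 CPM in JQF (log2 fold change 0.94 ± 0.24 SE, adjusted p = 0.00708), JQF being the highest library, with 1 of 10 genes called beside 3.61% of all genes. The call was kept in 7 of 10 alternatives. In neutrophils Vcam1 was 11.8 CPM in NCD, 8.63 and 31.3 CPM in HFD replicates 1 and 2 and 5.36 CPM in JQF (log2 fold change -1.98 ± 0.57 SE, adjusted p = 0.0486, kept in 4 of 10), with 1 of 10 called beside 0.984%. The NCD and JQF values were carried by few cells, HFD replicate 1 was close to NCD and only replicate 2 stood high, and without replicate 2 the log2 fold change was -0.77, with no residual spread left for a test. Taking away an assumed 5% of each sum as free RNA left 5.47 CPM in NCD, 0 and 5.98 CPM in HFD replicates 1 and 2 and 0.0697 CPM in JQF, so JQF and HFD replicate 1 were at or near 0. Neutrophil Icam1 gave log2 fold change 0.12 ± 0.25 SE, adjusted p = 1. In all other types 0 of 10 genes were called by edgeR, beside 4.30% of all genes in NK cells, 2.17% in monocytes, 0.593% in T cells, 0.132% in dendritic cells, 0.0687% in endothelial cells and 0% in macrophages, so 0 of 10 is near what those shares give. DESeq2 called 1 pair of 80, with 6 at an unadjusted p under 0.05. No share of all genes is given for either of these counts.

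The other adhesion genes were read from a list of 42: immunoglobulin-family molecules, selectins and selectin ligand carriers, other integrin chains and integrin activators. In HFD against NCD 70 of 264 gene-type pairs were called, 22 higher and 48 lower, at a median log2 fold change of -0.27 beside 0.015 to 0.17 over all genes of each type. The share called was 26.5%, beside the 16.7% of all gene-type tests. By type it was 18 of 41 in dendritic cells beside 32.1% of all genes, 12 of 35 in monocytes beside 19.3%, 11 of 25 in B cells beside 26.8%, 10 of 29 in NK cells beside 19.3%, 7 of 28 in neutrophils beside 14.5%, 5 of 37 in T cells beside 8.5%, 4 of 33 in macrophages beside 7.26% and 3 of 36 in endothelial cells beside 5.54%. In dendritic cells 13 of the 18 were lower, and the NCD cells included the subcluster led by endothelial genes. Without it 14 of 38 were called, 5 higher and 9 lower, beside 25% of all genes, and over all types 66 of 261, 22 higher and 44 lower. No pooled share of all genes is given for that total. The list includes genes that endothelial cells express. Endothelial cells made up 52.4% of the cells in NCD, 1.60% and 11.65% in HFD replicates 1 and 2 and 6.95% in JQF. The part of endothelial RNA in the list counts, in the excess of lower calls and in the median of -0.27 was not tested, so no general fall of adhesion genes is read from them. The values that follow are log2 fold changes of the edgeR fits. NK cells had lower Itga1, a collagen-binding chain (-2.25, adjusted p = 0.00117). Itga1 is also a marker of ILC1-like cells, whose share of NK cells went the other way, at 5.36% in NCD and 65.7% and 44.3% in HFD replicates 1 and 2. T cell markers in NK cells other than Cd247 were 969 CPM in NCD and 96.7 and 349 CPM in HFD replicates 1 and 2. Endothelial markers in NK cells, given for Itgam, were also highest in NCD. The part of any of these in the call was not tested. Endothelial cells had higher Selp, the P-selectin gene whose product binds PSGL-1 (2.22, adjusted p = 0.0274), and Itgb3 (1.47, adjusted p = 0.0235), and lower Rap1b, a small GTPase that activates integrins (-1.40, adjusted p = 0.0256). Sinusoidal cells made up 91.7% in NCD, 54.1% and 76.7% in HFD replicates 1 and 2 and 77.4% in JQF of the endothelial cells. In sinusoidal cells alone Selp (2.24, adjusted p = 1.83e-13), Itgb3 (1.89, adjusted p = 5.18e-10) and Rap1b (-1.35, adjusted p = 2.11e-06) were called in the same directions, among 8 of 34 beside 12% of all genes. The Selp and Rap1b estimates were near those of all endothelial cells, and the p-values of these fits are not on one scale. HFD replicate 1 held 53 sinusoidal cells. Monocytes and neutrophils had lower Cd44, a hyaluronan receptor (-1.99 and -1.35, adjusted p = 5.94e-05 and 1.36e-06), and lower Cyth1, an activator of LFA-1 (-1.13 and -1.23, adjusted p = 0.000361 and 9.33e-05). B cells had lower Itgb3 (-1.73, adjusted p = 8.81e-08), and T cells lower Itgb8 (-2.08, adjusted p = 0.00779). Macrophages had lower Itga1 (-3.39, adjusted p = 0.035), higher Itgb5 (1.67, adjusted p = 0.0415) and higher Alcam (4.27, adjusted p = 0.0436), and the fourth call, outside the naming rule and named after its values were seen, was lower Podxl (-4.29, adjusted p = 0.0468), which endothelial cells express. The endothelial markers summed to 918 CPM in NCD, 144 and 270.1 CPM in HFD replicates 1 and 2 and 315 CPM in JQF in macrophages, and their part in these calls was not tested. In dendritic cells Itga1 was lower with all cells (-3.31, adjusted p = 0.00126) and without the endothelial-led subcluster (-1.49, adjusted p = 0.0066), while Podxl (-6.01, adjusted p = 0.00289) and Itga9 (-3.80, adjusted p = 0.00106) were called with all cells and not without it.

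In the same list, JQF against HFD called 4 of 264 of these pairs, 1.52% beside 1.35% of all gene-type tests and so near the background: Itga1 higher (1.71, adjusted p = 0.0185) and Pecam1 lower (-0.87, adjusted p = 0.042) in NK cells, Itgb8 lower in T cells (-1.95, adjusted p = 0.0454) and Itga9 lower in monocytes (-1.02, adjusted p = 0.0101). ILC1-like cells, a subset named in part from Itga1, made up 5.36% in NCD, 65.7% and 44.3% in HFD replicates 1 and 2 and 32.8% in JQF of NK cells. Their share was lower in JQF than in HFD, while Itga1 was higher. The T cell markers other than Cd247 summed to 969 CPM in NCD, 96.7 and 349 CPM in HFD replicates 1 and 2 and 1147 CPM in JQF. Both thus differed between HFD and JQF, and their part in the NK cell calls was not tested. In sinusoidal cells alone, a fit chosen after seeing the data, 2 of 34 list genes were called beside 1.16% of all genes, Selp (-1.62, adjusted p = 1.01e-05) and Cd34 (-2.07, adjusted p = 0.00338), both lower in JQF and neither called in all endothelial cells. Cd34 is a marker of the large-vessel subset against which sinusoidal cells were named, so these cells were chosen in part by it. The calls of the sinusoidal and all-endothelial fits are not on one scale.

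Over the 32 type-by-library profiles, the genes whose log2(CPM + 1) pattern was most like each adhesion gene, among 9010 genes, are a description, since profiles of a type share much. Itgal and Itgb2, the chains of LFA-1, were each other's closest (r = 0.973), followed by Arhgap9 for both (r = 0.96 and 0.962). For Icam1 they were Ccrl2 (r = 0.866) and Txnrd1 (r = 0.859), for Icam2 Ipo11 (r = 0.904) and Prxl2c (r = 0.899) and for Vcam1 Pmp22 (r = 0.942) and Mertk (r = 0.93). For Itgam they were Fgr (r = 0.957) and Tyrobp (r = 0.938), for Itgax Efhd2 (r = 0.901) and Apobr (r = 0.901) and for Itga4 Runx1 (r = 0.957) and Dock2 (r = 0.943). For Itgb7 they were Runx3 (r = 0.915) and Pkp3 (r = 0.911), and for Selplg Atp8b4 (r = 0.953) and Pik3r5 (r = 0.928).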

How the data were processed

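The authors deposited raw UMI counts, with PCR copies of a molecule collapsed, as unfiltered and filtered matrices of 4 liver libraries. The submitters' processing notes name Cell Ranger 6.0.1, Seurat 4.0.3 and mm10, while the file headers name other Cell Ranger versions, so whether introns were counted is not settled and overlapping genes may share reads.

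Cells needed 500 or more genes and a mitochondrial share of 20% or less, and the highest Scrublet scores were removed at 0.8% per 1000 called barcodes. Clustering used scanpy 1.11.5 with 2000 variable genes, the adhesion genes left out, 30 components, 15 neighbours and Leiden resolution 1 with random seed 1. To be named, a cluster needed 3 or more markers that each reached 10% of its cells and 2 times the level elsewhere. The best-scoring type gave the name, but an NK cell cluster that also met 3 T cell markers was named T cell. Clusters led by markers of another type, and some with few UMIs, were left unnamed. Subsets also needed a log2 score against the parent type of at least -0.2 and a margin of 0.5 over the next subset. The thresholds of the naming rule were set after clusters had been seen. The adhesion genes, the list of 42 other adhesion genes and the comparisons were chosen with earlier results of these data known.

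Counts were summed per library and type and tested with edgeR 4.0.16 in R 4.3.3 (TMM, filterByExpr, quasi-likelihood, Benjamini-Hochberg at 0.05 over all genes of the type), with group as the only term. Libraries, not cells, were the replicates. The HFD pair gave the only residual degree of freedom (1). To this edgeR adds degrees of freedom pooled over the genes of a fit, and how many it added differed between fits. An equal ratio of estimate to SE thus gives different p-values in different fits. Calls are therefore not comparable between types or subsets. SE was obtained from the F statistic as |log2 fold change|/√F. The named genes are all 10 adhesion genes, up to 3 called genes of the other list by smallest adjusted p per type and comparison, and the 2 genes most like each adhesion gene by Pearson correlation, among genes of at least 10 mean CPM. Poisson and exact binomial 95% intervals cover counting error only. 1010 cells under 2000 UMIs were left out of thinning. Alternatives were DESeq2 1.42.0 (its size factors and its test), library totals, no filter, doublets kept, a mitochondrial limit of 10%, resolution 0.5, adhesion genes among the variable genes, leaving out the 3 cells with most UMIs and leaving out libraries.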

Additional observations from a re-analysis of the deposited data

Results flagged for a closer look

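Itgb7 differed in direction between types in HFD against NCD. Its log2 fold change was 0.77 in B cells, 0.74 in NK cells, 1.05 in T cells and 0.95 in dendritic cells, where both HFD libraries were above NCD, and -1.74 in macrophages, where both were below. The difference between types was not tested. The dendritic cell value fell to 0.52 (adjusted p = 0.06 in the edgeR fit) without the subcluster led by endothelial genes. Macrophage endothelial markers summed to 918 CPM in NCD, 144 and 270.1 CPM in HFD replicates 1 and 2 and 315 CPM in JQF.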

How the results depend on the processing

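No paired analysis was possible because the groups are separate mice and the labels give no pairing. In HFD against NCD, 25 pairs were called, with 20 to 34 under the alternatives other than the DESeq2 test, which called 15. No share of all genes is given for any alternative in this section, so these counts are not set against a background. In JQF against HFD, 2 pairs were called, against 7 without the filter on low counts, 4 without the 3 cells with most UMIs, 1 with the DESeq2 test and 0 with doublets kept, where edgeR gave 15 of 80 at an unadjusted p under 0.05. Leaving out single NCD or JQF libraries could be tested once per comparison, with 23 calls in HFD against NCD without JQF and 3 in JQF against HFD without NCD. Leaving out an HFD library left no residual degree of freedom, hence fold changes without a test. Among the other list, 74 gene-type pairs were called over both comparisons, 46 with DESeq2, 70 without the endothelial-led subcluster and 81 with sinusoidal endothelial cells only. Of 27 calls, 8 were kept under every alternative tested on whole types: Itgam and Itgb2 in NK cells, Itgb7 in T cells, Icam1, Itga4 and Selplg in dendritic cells, Icam1 in endothelial cells and Itgax in macrophages. The subcluster and subset fits are not among these alternatives. In cytotoxic T cells alone Itgb7 did not pass (log2 fold change 0.82, edgeR adjusted p = 0.121). Without JQF, 3 calls of the diet comparison were lost: Itgax in dendritic cells, Itgal in endothelial cells and Itga4 in neutrophils.

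Reversals in HFD against NCD were these. Icam2 in dendritic cells was 0.48 with doublets kept, 0.25 at the 10% limit, 0.24 at resolution 0.5, 0.47 without the endothelial-led subcluster and 0.27 in named subclusters. Vcam1 in dendritic cells was 1.73, 0.80, 0.78, 1.00 and 1.53 in the same order, and Itgal there was -0.053 in named subclusters. The uncalled endothelial values turned for Icam2, at 0.14 with library totals, 0.025 at the 10% limit, 0.022 at resolution 0.5 and 0.13 in sinusoidal cells, and for Vcam1, at 0.078 with library totals and 0.23 with doublets kept. The cause was not tested. Of 133 pairs not called, 44 changed sign in a tested alternative and 24 were called in one, so no direction is given for them. Subcluster and subset fits were chosen after seeing the data. The median of all genes differed by up to 0.22 between scalings (NK cells).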
